A study of Mus musculus with 12 samples.

Results

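Gene expression in the medial prefrontal cortex was compared between mice that were germ-free until weaning and then colonized (exGF) and conventionally raised mice (CON), to describe which transcripts still differed after 7 weeks of colonization. The libraries were chosen by their group labels, and the comparison used 8 of the 12 libraries of the series, 4 exGF and 4 CON. No count column was named exGF. Columns named GFR were taken as this group because no others were left for it. All animals were male Swiss Webster mice of 10 weeks, offspring of germ-free or conventional breeding pairs. Parentage and early-life microbes therefore differed together between exGF and CON, and their parts cannot be told apart here. CON mice grew up with a conventional microbiota. ExGF mice were raised germ-free to postnatal day 21 and from then on took up microbes in ordinary animal rooms, kept near CON mice. The remaining 4 libraries came from germ-free mice (GF), which stayed in isolators, and their values are set beside the comparison. Each library was a pool of RNA from 2 to 3 animals, so the p-values measure spread between pooled libraries and not between animals. Counts assigned to genes ranged from 22702599 to 29134760 per library over the 8 libraries, with a median of 25364996. Levels are given as CPM, counts scaled to the size of each library, with scaling factors from all 12 libraries.

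The prefrontal cortex holds excitatory and inhibitory neurons, and among the latter the fast-spiking cells depend on ion channels and release proteins that allow firing at high rates. Microglia are the resident macrophages of the brain, clear debris and synapses, and make the C1q subunits of complement. The meninges are membranes around the brain whose fibroblasts make collagens, and traces of them can stay on dissected cortex.

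Markers of cortex fitted the label of the tissue. Slc17a7, the vesicular glutamate transporter of cortical excitatory neurons, held 1453, 1361, 1470 and 1370 CPM in CON and 1370, 1547, 1629 and 1585 CPM in exGF. The groups overlapped. Of the defining markers of other tissue, Ccdc153 of ependyma was at 0 in 1 CON and 1 exGF library and Tmem212 in 1 CON and 2 exGF libraries, and the others were above 0 in all 8. Striatal RNA was uneven: the summed level of the striatum list, with Ppp1r1b as its most abundant gene, was 271, 521, 282 and 261 CPM in CON and 324, 281, 285 and 498 CPM in exGF. One library of each group, the second of CON and the last of exGF, was high, and the part of this in other results was not tested except by leaving out each library.

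Of 15813 genes tested, 11 (0.0696%) were called at an adjusted p under 0.1, 4 higher in exGF (0.0253%) and 7 lower (0.0443%). Called refers to edgeR's quasi-likelihood F test here and below unless another tool is named. DESeq2, with the same threshold and no prior, called 60, so that a gene not called by edgeR is not shown to be equal between groups. An unadjusted p under 0.05 was found for 389 genes in the higher direction (2.46%) and 454 in the lower (2.87%). All 4 exGF libraries lay above all 4 CON libraries for 297 genes (1.88%) and below them for 228 (1.44%). The median log2 fold change over all tested genes was -0.01. In the comparison of GF with CON, which shares the CON libraries, 39 of 15542 genes were called (0.251%). Between exGF and GF, the quasi-likelihood F test of edgeR called 0 of 15569 genes (0%), while 1035 had an unadjusted p under 0.05. DESeq2 called 19 in that comparison, with 1055 at an unadjusted p under 0.05, and Tuba1c and Zfp605 were among the 19. A gene that differed from CON in exGF but not in GF is therefore not shown to differ between them unless that difference passed its own test.

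Genes called higher in exGF included a neuronal channel subunit and an interferon-induced gene. Scn4b (chr9:45138395-45154152, GRCm38) encodes a beta subunit that modulates voltage-gated sodium channels. It held 47.1, 60.4, 60.7 and 50.6 CPM in CON and 107, 89.7, 80.7 and 95.9 CPM in exGF. Every exGF library exceeded every CON library. The log2 fold change was 0.76 ± 0.115 (standard error, 4 libraries a group), with an adjusted p of 0.0307 in the quasi-likelihood F test of edgeR, Benjamini-Hochberg adjusted. The call was lost in a fit of all 12 libraries and without the first CON library, with adjusted p-values over all alternatives of 1.69e-06 to 0.136 in the tools used. GF libraries held 112, 60.5, 93 and 74.8 CPM, and the log2 fold change of GF over CON was 0.65.

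Ifit2 (chr19:34550694-34576419) encodes an interferon-induced protein that binds RNA and restricts viruses. Its level was 7.45, 7.13, 7.28 and 7.19 CPM in CON and 17.6, 18.2, 23.5 and 11.7 CPM in exGF. CON libraries were close together and the exGF libraries were all higher but more spread. The log2 fold change was 1.27 ± 0.174, with an adjusted p of 0.0139 in the quasi-likelihood F test of edgeR, Benjamini-Hochberg adjusted. The call was lost in the fit of all 12 libraries, with adjusted p-values over all alternatives of 1.71e-08 to 0.187 in the tools used. GF libraries held 13.5, 21.3, 14 and 5.34 CPM, and the log2 fold change of GF over CON was 0.91. That of exGF over GF was 0.37, which passed in neither edgeR nor DESeq2. Of 30 tested members of the list, 1 was called, 2 had an unadjusted p under 0.05 in the higher and 1 in the lower direction, and the median log2 fold change was -0.08. The neighbouring paralog Ifit3b had a log2 fold change of 0.86 ± 0.29 and Ifit1 one of -0.46 ± 0.178, and neither passed in edgeR or DESeq2. Stat2, the member with the highest level, held 30.8, 33.2, 35.4 and 32.3 CPM in CON and 40.7, 37.3, 38.6 and 30.1 CPM in exGF, and the groups overlapped.

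Cfap74 (chr4:155409190-155466823), named for a protein of cilia and flagella, held 8.03, 6.15, 5.63 and 9.09 CPM in CON and 18.2, 15.2, 15.3 and 12.6 CPM in exGF. All exGF libraries were higher. Its log2 fold change was 1.07 ± 0.165 with an adjusted p of 0.0331 in the quasi-likelihood F test of edgeR, Benjamini-Hochberg adjusted. It kept its call in 2 of the 8 fits that left out a library, with adjusted p-values over all alternatives from 2.79e-06 to 0.149 in the tools used. GF libraries of Cfap74 held 20.4, 11.3, 16.6 and 9.97 CPM, and its log2 fold change of GF over CON was 1.01. Gm6612 (chr15:80952505-80952899), a processed pseudogene, had 69 counts in the exGF libraries together and 1 in the CON libraries. The ratio per depth was 68.2 (95% exact interval 11.8 to 2732, counting error only), all 4 exGF libraries were higher, and the adjusted p was 0.00846 in the quasi-likelihood F test of edgeR, Benjamini-Hochberg adjusted. GF libraries held 1.62, 0.891, 0.588 and 0.654 CPM.

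**Figure D1:**
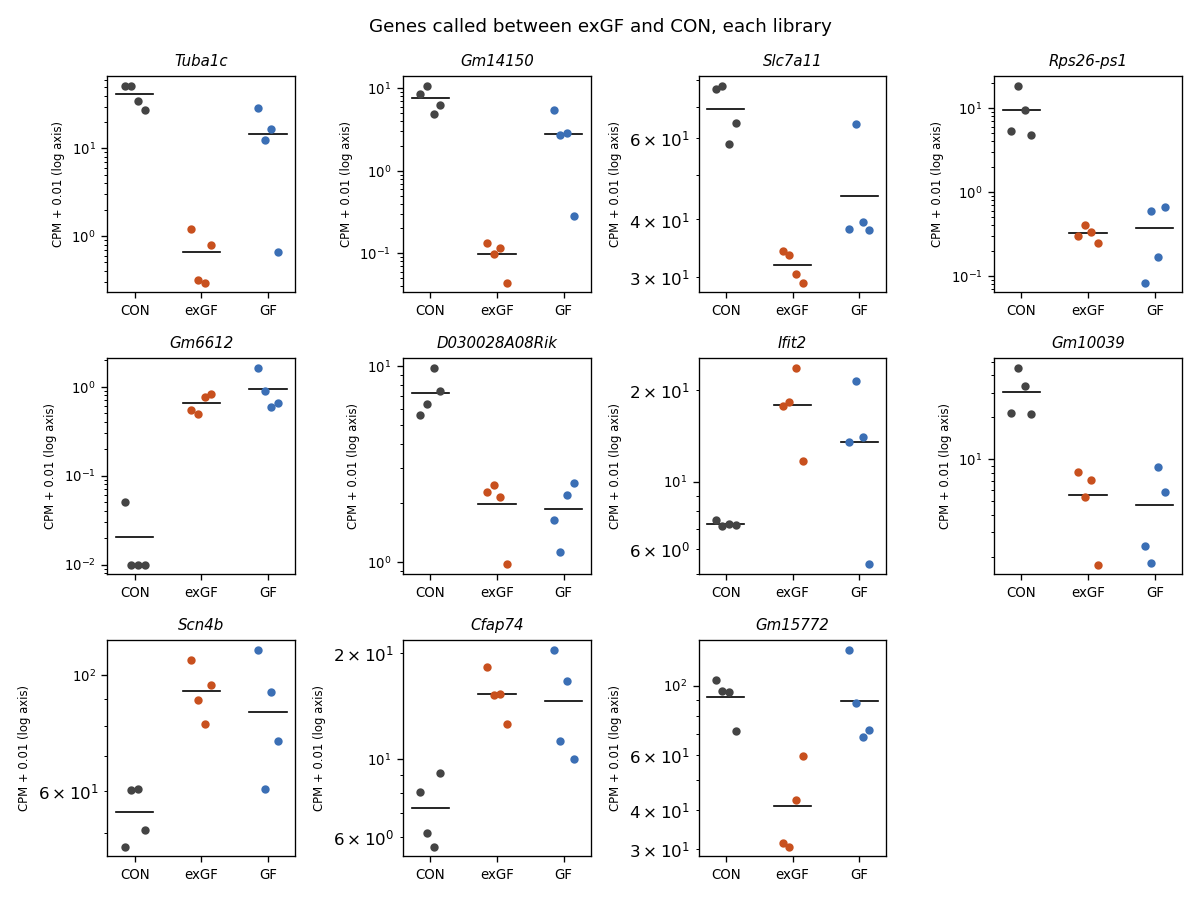
Level of the 11 called genes in each library, in CPM plus 0.01 on a log axis; points are libraries (4 per group) and lines are group means. Every exGF point lies on 1 side of the CON points for each gene, and Tuba1c differs among GF libraries from 0.654 to 28.6 CPM.

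Slc7a11 (chr3:49892526-50443614), the light chain of the exchanger that imports cystine for glutathione synthesis and exports glutamate, fell in exGF. Its level was 76.6, 77.7, 58.2 and 64.5 CPM in CON and 34.1, 33.5, 30.5 and 29.2 CPM in exGF. The lowest CON library was above the highest exGF library. The log2 fold change was -1.13 ± 0.111, with an adjusted p of 6.12e-04 in the quasi-likelihood F test of edgeR, Benjamini-Hochberg adjusted. It was called in all 9 alternative fits and in all 8 fits that left out a library. GF libraries held 38.2, 64.3, 39.4 and 38 CPM, and the log2 fold change of exGF over GF was -0.52, which passed in neither edgeR nor DESeq2. Among 15 tested genes of cystine and glutathione metabolism Slc7a11 was the only one called, and the median was -0.05. Gpx4, which reduces lipid peroxides and was the most abundant member, held 294, 292, 236 and 168 CPM in CON and 225, 153, 216 and 240 CPM in exGF with overlapping groups.

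Tuba1c (chr15:99029891-99038110), an alpha tubulin of microtubules, had the lowest adjusted p of all genes. It held 50.9, 51.6, 34.9 and 27.6 CPM in CON and 1.19, 0.306, 0.286 and 0.788 CPM in exGF. Every exGF library was far below every CON library. The log2 fold change was -6.01 ± 0.339, with an adjusted p of 2.98e-06 in the quasi-likelihood F test of edgeR, Benjamini-Hochberg adjusted. GF libraries held 28.6, 12.4, 16.6 and 0.654 CPM, of which the highest lay within the CON range and the lowest within the exGF range. The tubulin-like processed pseudogene Gm14150 (chr2:151458956-151460309) had 763 counts in CON and 9 in exGF, a ratio per depth of 85.8 (95% exact interval 44.9 to 188, counting error only), with all 4 exGF libraries lower and an adjusted p of 3.57e-06 in the quasi-likelihood F test of edgeR, Benjamini-Hochberg adjusted. Of the other 14 tested tubulins none was called, and the list median was -0.01. Tubb6 had a log2 fold change of -0.44 ± 0.181 and Tuba8 one of 0.33 ± 0.138.

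Of the 7 genes called lower, 5 share much of their sequence with another gene. How reads were divided between such copies was not tested, and the counts of these genes are uncertain. The share of distinct 31-base words found in the closest other gene was 49% for Tuba1c and 72.4% for Gm14150, both with Tuba1b, 70.9% for Rps26-ps1 with Rps26, 92.9% for Gm10039 with Atp5g1 and 84.8% for Gm15772 with Rpl26. Among the genes called higher, the share was 12.3% for Gm6612, with Atp5g1, and 3.88% for Cfap74. No such word of Scn4b or Ifit2 occurred in another gene. The near copies themselves, chosen after their values were seen, were called by neither edgeR nor DESeq2. Tuba1b held 190, 203, 188 and 188 CPM in CON and 233, 194, 209 and 256 CPM in exGF, Rpl26 held 100, 164, 99.3 and 50.4 CPM in CON and 152, 86, 134 and 165 CPM in exGF, and the groups overlapped for both. The log2 fold changes were 0.20 for Tuba1b, -0.20 for Rps26, 0.18 for Atp5g1 and 0.36 for Rpl26. A difference in the sequence carried by the animals and a difference in expression cannot be told apart from these counts. A window of 60 bases from a coding exon of Rpl26 and its copy in Gm15772 is given for this pair alone, with the mismatching base in capitals. In GRCm38, Gm15772 lies at chr5:3236599-3236658 (+ strand) and Rpl26 at chr11:68903179-68903238 (+ strand) in this window.
Gm15772: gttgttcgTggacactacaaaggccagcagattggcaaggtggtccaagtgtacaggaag
Rpl26: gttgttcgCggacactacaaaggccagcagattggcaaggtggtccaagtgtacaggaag

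Rps26-ps1 (chr8:107439131-107439579) held 5.37, 18.3, 9.34 and 4.76 CPM in CON and 0.287, 0.393, 0.321 and 0.24 CPM in exGF. Gm10039 (chr11:100361716-100362126) held 21.6, 45.3, 33.3 and 21 CPM in CON and 8.08, 5.37, 7.04 and 1.75 CPM in exGF. In both pseudogenes every exGF library was lower, and GF libraries were low as well, at 0.0737, 0.579, 0.16 and 0.654 CPM for the first. Log2 fold changes were -4.93 ± 0.485 and -2.47 ± 0.364, with adjusted p-values of 6.12e-04 and 0.0267 in the quasi-likelihood F test of edgeR, Benjamini-Hochberg adjusted. Gm10039 lost its call in the robust fit, with adjusted p-values over all alternatives of 1.63e-06 to 0.275 in the tools used. Gm15772 (chr5:3236431-3236868) held 105, 96.2, 95.6 and 71.3 CPM in CON and 31.4, 30.5, 43.1 and 59.6 CPM in exGF, against 130, 87.7, 68.3 and 71.8 CPM in GF. All exGF libraries were below all CON libraries, and the log2 fold change was -1.17 ± 0.192, with an adjusted p of 0.0567 in the quasi-likelihood F test of edgeR, Benjamini-Hochberg adjusted. It is the 1 called gene lost at a threshold of 0.05. It kept its call in 2 of the 8 fits that left out a library, with adjusted p-values over all alternatives from 2.79e-06 to 0.28 in the tools used. D030028A08Rik (chr11:96916270-96965060), a non-coding transcript, held 5.57, 6.4, 9.75 and 7.42 CPM in CON and 2.26, 2.45, 2.14 and 0.959 CPM in exGF. All exGF libraries were lower. Its log2 fold change was -1.93 ± 0.261, with an adjusted p of 0.0139 in the quasi-likelihood F test of edgeR, Benjamini-Hochberg adjusted, and that of GF over CON was -1.96.

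The list of fast-spiking and high-rate neuron genes had the most members higher at an unadjusted p under 0.05. Of 16 tested, 1 was called (Scn4b), 9 had an unadjusted p under 0.05, all higher, and 7 had all exGF libraries above all CON libraries. The median log2 fold change was 0.26 in exGF and 0.33 in GF, each against the same CON libraries. Summed levels were 2367, 2225, 2529 and 2323 CPM in CON and 2878, 2846, 2862 and 2697 CPM in exGF, without overlap. Pvalb, a member of this list, is also on the GABAergic interneuron list. The highest log2 fold change of that list was 0.13, with 0 members higher at an unadjusted p under 0.05. Syt2, a fast calcium sensor of transmitter release, held 26.5, 22, 29.4 and 26.8 CPM in CON and 43.3, 47.6, 40.5 and 34.7 CPM in exGF. The groups did not overlap, and the log2 fold change was 0.65 ± 0.116. Its adjusted p of 0.111 in the quasi-likelihood F test of edgeR, Benjamini-Hochberg adjusted, missed the threshold, but Syt2 was called in 4 of 9 alternative fits, and its adjusted p ran from 4.26e-04 with DESeq2 to 0.405 over all alternatives. Vamp1, a vesicle protein that drives fusion, held 116, 103, 116 and 107 CPM in CON and 137, 157, 155 and 140 CPM in exGF. Nefm, a neurofilament subunit of large axons, held 183, 159, 227 and 178 CPM in CON and 281, 248, 241 and 233 CPM in exGF. Both were separated between groups, with log2 fold changes of 0.40 and 0.41. Neither was called by edgeR, while Vamp1 was called in 3 of 9 alternative fits, DESeq2 among them, and Nefm in none. Cplx1, a complexin that clamps and promotes fusion and the most abundant member, overlapped, with a log2 fold change of 0.14.

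Of 8 tested voltage-gated sodium channel genes, Scn4b was called, and the median was 0.12. It ran from 0.04 to 0.18 when 1 library was left out. Scn3b, which encodes another beta subunit, lay in the opposite direction to Scn4b, at 163, 156, 163 and 163 CPM in CON and 144, 144, 147 and 149 CPM in exGF. All exGF libraries were lower, and it was called by neither edgeR nor DESeq2. Scn1a, the pore-forming subunit prominent in inhibitory cells, had a log2 fold change of 0.36 ± 0.168. Markers of neuron classes had medians near that of all genes. Of 15 GABAergic interneuron genes 0 were called in the quasi-likelihood F test of edgeR, 1 had an unadjusted p under 0.05 and the median was -0.02. Of 20 excitatory neuron genes 0 were called, 1 had an unadjusted p under 0.05 and the median was -0.01.

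**Figure D2:**
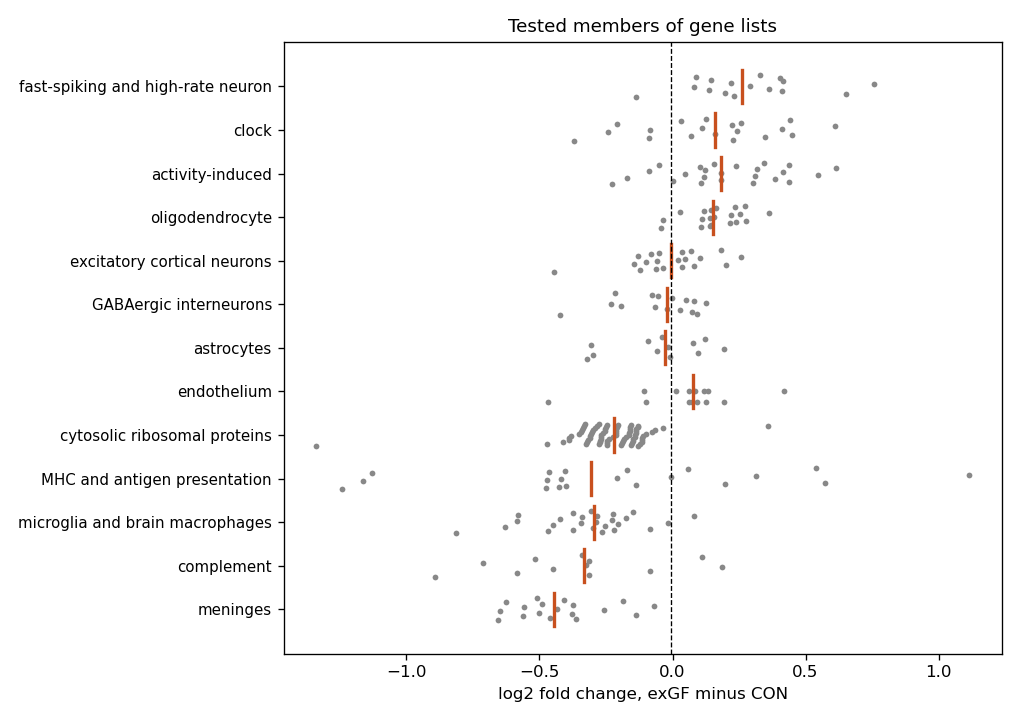
Log2 fold change of exGF over CON for each tested member of 13 gene lists; points are genes, orange bars are list medians and the dashed line is the median of all tested genes. Medians run from -0.45 for meninges to 0.26 for fast-spiking and high-rate neuron.

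Microglial and macrophage genes had a median below 0 in exGF. Of 26 tested, 0 were called in the quasi-likelihood F test of edgeR, 13 had an unadjusted p under 0.05, all lower, and 8 had all exGF libraries below all CON libraries. The median log2 fold change was -0.29 in exGF and -0.21 in GF. Summed levels were 683, 743, 655 and 623 CPM in CON and 556, 511, 571 and 585 CPM in exGF, and the groups did not overlap. In bulk tissue, fewer cells of a type and less RNA per cell cannot be told apart. C1qb, a subunit of the complement starter C1q, held 37.5, 41.3, 37.7 and 34.8 CPM in CON and 25.2, 20.4, 27.4 and 28.6 CPM in exGF. Lyz2, a lysozyme of myeloid cells, held 11.6, 13, 12.3 and 10.4 CPM in CON and 6.81, 4.19, 7.22 and 8.8 CPM in exGF. Fcgr2b, an inhibitory receptor for antibodies, held 9.17, 8.24, 9.58 and 8.41 CPM in CON and 6.2, 6.51, 6.04 and 5.17 CPM in exGF. Each was lower in all 4 exGF libraries, with log2 fold changes of -0.59 ± 0.112, -0.81 ± 0.183 and -0.58 ± 0.125. The adjusted p of C1qb was 0.182 in the quasi-likelihood F test of edgeR, Benjamini-Hochberg adjusted, and in GF over CON it was 0.0307 at a log2 fold change of -0.53. Ly86, a partner of a Toll-like receptor relative, had a log2 fold change of -0.63 ± 0.143. DESeq2 called C1qb, Lyz2, Fcgr2b and Ly86, and over 9 alternative fits C1qb was called in 4, Lyz2 in 3 and the other 2 in 2 each. Csf1r, the growth factor receptor that microglia need and the most abundant member, held 99.1, 113, 103 and 108 CPM in CON and 85, 87.3, 95.6 and 97.7 CPM in exGF, with all exGF libraries lower.

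The complement list shares the C1q genes with the microglial list. Of 12 tested, 0 were called in the quasi-likelihood F test of edgeR and 5 had an unadjusted p under 0.05, all lower, and 2 had separated groups, with a median of -0.33. C1qc had a log2 fold change of -0.45 ± 0.121, C1qa one of -0.34 ± 0.13 and Serping1, an inhibitor of C1, one of -0.52 ± 0.144. Of 16 tested microbial pattern receptors, 1 (Tlr13) had an unadjusted p under 0.05, and the median was -0.05.

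Antigen presentation genes were mixed. Of 20 tested, 0 were called in the quasi-likelihood F test of edgeR, 6 had an unadjusted p under 0.05, all lower, and the median was -0.30. The log2 fold change was below 0 for 14 members and above 0 for 6, the highest at 1.12. Summed levels were 202, 244, 228 and 162 CPM in CON and 213, 198, 225 and 242 CPM in exGF, and the groups overlapped. The neighbours H2-T24 (chr17:36005695-36020560) and H2-T23 (chr17:36029773-36032855) encode non-classical class I molecules. H2-T24 held 5.98, 3.16, 3.16 and 5.48 CPM in CON and 1.72, 2.05, 2.21 and 1.58 CPM in exGF, and H2-T23 held 8.23, 3.37, 3.5 and 7.15 CPM in CON and 3.04, 1.83, 2.68 and 2.43 CPM in exGF. All exGF libraries were lower for both, and DESeq2 called both. The class II gene H2-Eb1 had a log2 fold change of -1.13 ± 0.339 and its chaperone Cd74 one of -0.47 ± 0.196. B2m, the light chain of class I and the most abundant member, held 74.3, 66.3, 71.5 and 52.9 CPM in CON and 64.9, 51.3, 59.2 and 62.2 CPM in exGF and overlapped.

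Meningeal genes had the lowest median. Of 18 tested, 0 were called in the quasi-likelihood F test of edgeR, 13 had an unadjusted p under 0.05, all lower, and 6 had all exGF libraries below all CON libraries. The median was -0.45 in exGF and -0.41 in GF. Summed levels were 478, 408, 381 and 337 CPM in CON and 286, 288, 349 and 299 CPM in exGF, and the groups overlapped. Col1a2, a chain of type I collagen, held 35.9, 35.5, 29.7 and 30.4 CPM in CON and 21.3, 25.9, 26.1 and 24.9 CPM in exGF. Coch, a secreted matrix protein, held 25.1, 30.4, 27.7 and 22 CPM in CON and 16.3, 21.1, 18.9 and 12.6 CPM in exGF. Islr, a protein of fibroblasts, held 34.4, 24.7, 24.4 and 26.6 CPM in CON and 18.9, 17.5, 20.8 and 18 CPM in exGF. Each was separated between groups, with log2 fold changes of -0.43 ± 0.105, -0.62 ± 0.154 and -0.56 ± 0.121, and DESeq2 called all 3. Igf2, a growth factor and the most abundant member, held 116, 87.6, 93.5 and 80.2 CPM in CON and 60.7, 70.1, 89.1 and 73.1 CPM in exGF and overlapped. How much meninges stayed on each sample was not tested, and its part in the macrophage, collagen and Slc7a11 values was not tested.

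**Figure D3:**
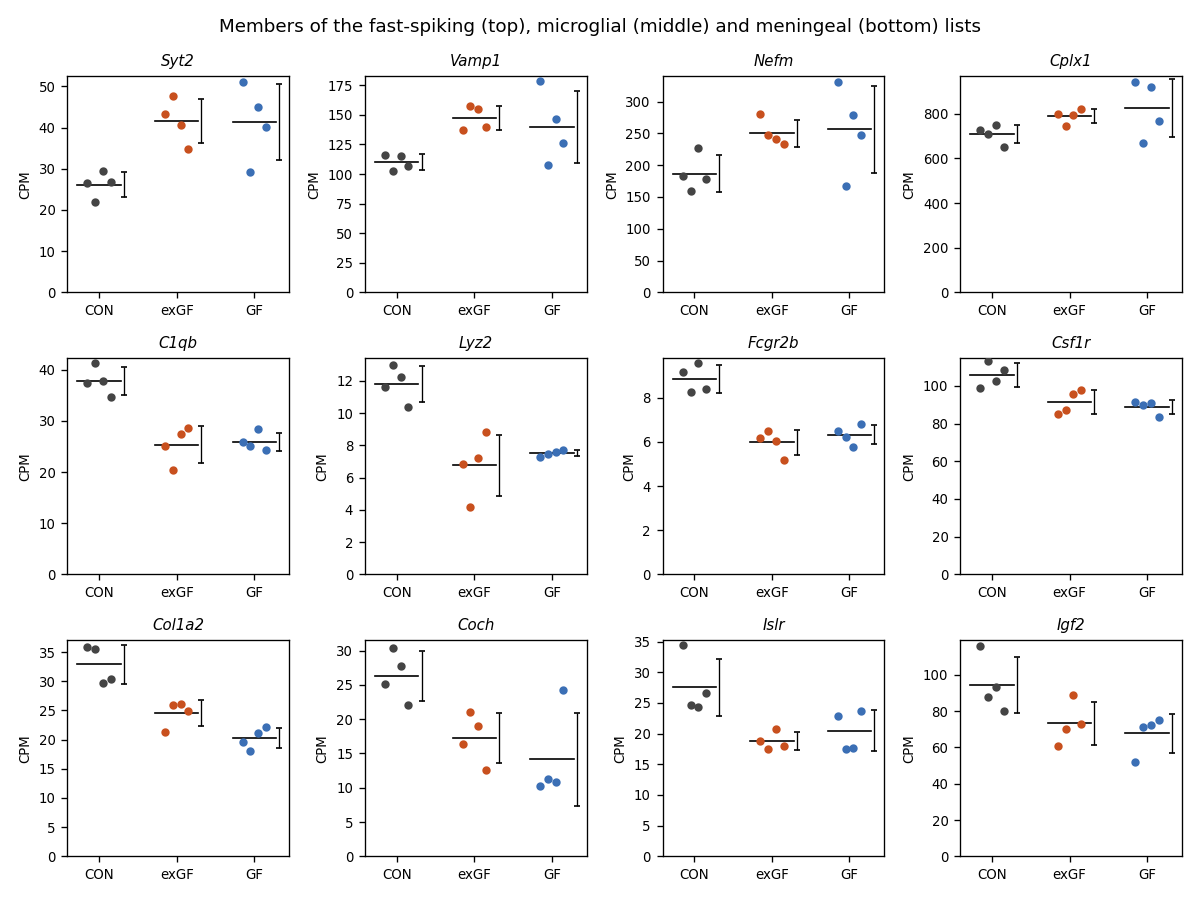
Level in CPM of 4 members each of the fast-spiking (top), microglial (middle) and meningeal (bottom) lists; points are libraries, lines are means and bars are SD (n = 4 per group). Syt2 averaged 26.2 CPM in CON and 41.5 CPM in exGF, and C1qb 37.8 and 25.4 CPM.

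Of 17 tested collagen genes, 5 had an unadjusted p under 0.05, all lower, and the median was -0.06. Col3a1 had a log2 fold change of -0.56 ± 0.144, Col8a2 one of -1.14 ± 0.311 and Col5a2 one of -0.66 ± 0.198. Matn2, a matrix protein outside the lists, held 40.5, 44.4, 41.9 and 37.9 CPM in CON and 31, 29.7, 31.8 and 32.3 CPM in exGF, with all exGF libraries lower and a call by DESeq2. Of 12 astrocyte genes, 3 had an unadjusted p under 0.05, all lower, and the median was -0.03. The 3 were the gap junction genes Gjb6 and Gja1 and the filament gene Gfap, at log2 fold changes of -0.30, -0.30 and -0.32. In endothelium, Thbd, a brake on clotting, had a log2 fold change of -0.47 ± 0.119 and Slco1a4, an anion transporter of brain vessels, one of 0.42 ± 0.114, and the median over 14 genes was 0.08. DESeq2 called Thbd.

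No myelin gene was called in exGF. Of 20 tested oligodendrocyte genes 0 were called in the quasi-likelihood F test of edgeR and 2 had an unadjusted p under 0.05, both higher. The median log2 fold change was 0.15 in exGF and 0.69 in GF, and the direct comparison of exGF with GF had a median of -0.55. Mbp, a major protein of compact myelin, held 1204, 1134, 990 and 985 CPM in CON and 1327, 1052, 1018 and 1673 CPM in exGF and 1918, 1453, 2555 and 1842 CPM in GF. Mobp, another myelin protein, held 322, 380, 276 and 304 CPM in CON and 463, 330, 268 and 503 CPM in exGF and 555, 473, 839 and 663 CPM in GF. For both, the first and last exGF libraries lay above all CON libraries and the other 2 did not. Myrf, the transcription factor that drives myelin genes, held 23.2, 17.8, 20.1 and 21.5 CPM in CON and 23.2, 24.5, 24.5 and 28.6 CPM in exGF. It was the 1 member with all exGF libraries above all CON libraries. The margin was narrow, at 23.222 CPM in the first CON library and 23.226 CPM in the first exGF library. Its log2 fold change was 0.28 ± 0.108. The log2 fold changes of Mog and Mag were 0.23 ± 0.194 and 0.16 ± 0.153. Without the last exGF library, which also had the high striatal sum, the log2 fold changes of Mog and Mag were just below 0. Of 9 precursor genes none had an unadjusted p under 0.05, and the median was -0.07.

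Genes of the circadian clock leaned higher. Of 19 tested, 0 were called in the quasi-likelihood F test of edgeR, 6 had an unadjusted p under 0.05, all higher, 4 had all exGF libraries above and 1 all below all CON libraries, and the median was 0.16 in exGF and 0.25 in GF. Nr1d1, a repressor in the clock loop, held 98.1, 89.4, 86 and 95.7 CPM in CON and 107, 119, 126 and 143 CPM in exGF. Dbp, a clock output factor, held 27.3, 26.9, 21.2 and 20.8 CPM in CON and 30.2, 28.9, 33 and 40.3 CPM in exGF. Both were higher in all 4 exGF libraries, at log2 fold changes of 0.41 ± 0.0967 and 0.45 ± 0.131, and DESeq2 called Nr1d1. Ciart and Per1, which repress the loop, had log2 fold changes of 0.61 ± 0.167 and 0.44 ± 0.151. The time of day at which tissue was taken was not tested.

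Activity-induced genes had a median of 0.18 in exGF and 0.45 in GF, with 5 of 24 at an unadjusted p under 0.05, all higher. Summed levels were 1558, 1230, 1338 and 1420 CPM in CON and 1568, 1707, 1356 and 2056 CPM in exGF. The groups overlapped, and the last exGF library was the highest. Arc, which regulates synaptic receptors, held 306, 158, 190 and 270 CPM in CON and 329, 376, 218 and 499 CPM in exGF, and the groups overlapped. Dusp6, a phosphatase of growth signalling, had a log2 fold change of 0.31 ± 0.103, Sik1 one of 0.55 ± 0.197 and Egr2 one of 0.44 ± 0.265. When 1 library was left out, that of Sik1 ran from 0.35 to 0.71 and that of Egr2 from 0.17 to 0.67. Bdnf, a neurotrophin, held 33.5, 31.9, 36.7 and 34.7 CPM in CON and 42.4, 36.4, 36.2 and 35.1 CPM in exGF, with a log2 fold change of 0.12 ± 0.0917. The cold-induced RNA-binding genes Rbm3 and Cirbp had log2 fold changes of 0.35 ± 0.0995 and 0.22 ± 0.0943, within a list of 12 whose median was -0.04. The peptide gene Grp held 14.7, 11.1, 10.2 and 11.5 CPM in CON and 5.33, 5.42, 8.29 and 8.53 CPM in exGF, lower in all exGF libraries, and was the 1 of 17 neuropeptides at an unadjusted p under 0.05. DESeq2 called it.

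Cytosolic ribosomal protein genes had a median of -0.22 over 78 tested, with 3 at an unadjusted p under 0.05, all lower, and 0 called in the quasi-likelihood F test of edgeR. The log2 fold change was below 0 for 77 of the 78. The median of GF over CON was -0.01. That of exGF over GF was -0.19, with 18 members at an unadjusted p under 0.05, all lower. The summed level of the ribosomal list was 14036, 16552, 12881 and 9904 CPM in CON and 11659, 9115, 11678 and 13852 CPM in exGF, overlapping and uneven within each group. Hbb-bs, a globin of red blood cells, held 94.8, 115, 78.5 and 75.6 CPM in CON and 49.1, 37.3, 70.5 and 80.1 CPM in exGF, with a log2 fold change of -0.63 ± 0.207. Among choroid plexus genes, Kl had a log2 fold change of -0.68 ± 0.177, and Ttr, the defining transcript, was at most 2.61 CPM in the 8 libraries. Medians of the remaining lists were -0.06 for mural cells, -0.23 for ependyma, 0.17 for choroid plexus (5 genes), 0.01 for striatum and -0.07 for neuropeptides. They were -0.27 for neurotrophins, 0.01 for glucocorticoid-responsive genes, -0.06 for cholesterol synthesis and -0.01 for the aryl hydrocarbon receptor and kynurenine genes. For histone deacetylases, red blood cells, mitochondrially encoded genes and clustered protocadherins they were 0.03, -0.09, -0.08 and -0.01. All of these remaining lists but ependyma and neurotrophins took both signs over the alternatives, choroid plexus running from -0.35 to 0.18. Over the same alternatives ependyma ran from -0.28 to -0.07 and neurotrophins from -0.30 to -0.03.

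Several genes outside the lists were among the 12 next by unadjusted p in each direction, and none of them passed the threshold in edgeR. The lowest adjusted p among them was that of Gm16008, 0.1825 in the quasi-likelihood F test of edgeR, Benjamini-Hochberg adjusted. Its log2 fold change was 1.22 ± 0.232, with all exGF libraries above all CON libraries. Kcnj16, an inward rectifier potassium channel, held 12.4, 5.04, 13.6 and 27.9 CPM in CON and 4.27, 4.37, 4.22 and 3.8 CPM in exGF, with GF libraries at 3.02, 6.33, 3.69 and 4.47 CPM. Pla2g7, a lipase that inactivates platelet-activating factor, held 138, 142, 120 and 120 CPM in CON and 57.2, 62.7, 65.2 and 109 CPM in exGF. All exGF libraries were lower in both, although CON spread widely for the first and 1 exGF library stood apart for the second. Casp9, an initiator caspase of apoptosis, held 79.2, 67.6, 84 and 69.4 CPM in CON and 112, 98.2, 107 and 98.2 CPM in exGF, higher in all 4 exGF libraries. Their log2 fold changes were -1.84 ± 0.367, -0.83 ± 0.173 and 0.46 ± 0.0925, with adjusted p-values of 0.226, 0.27 and 0.251 in the quasi-likelihood F test of edgeR, Benjamini-Hochberg adjusted. Vill, a villin-like actin binder, had a log2 fold change of -2.32 ± 0.452 in exGF and -2.75 in GF, the latter with an adjusted p of 0.0195 in the quasi-likelihood F test of edgeR, Benjamini-Hochberg adjusted. Zfp605 had log2 fold changes of -0.83 ± 0.184 over CON and -0.63 over GF, of which edgeR called neither and DESeq2 both. DESeq2 also called Kcnj16, Pla2g7, Casp9 and Vill between exGF and CON.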

How the data were processed

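RNA from pooled medial prefrontal cortex was sequenced as stranded mRNA libraries. Per the labels and the methods of the study, reads were trimmed with Trimmomatic 0.32, aligned with STAR (2.3.1u in the submitters' notes, while the methods of the study give another version) to GRCm38 and counted per gene without strand with HTSeq 0.6.0 and Ensembl 78, so that a gene and its antisense partner cannot be told apart. The authors deposited raw counts for 41388 genes in 12 libraries. Rows naming no gene were left out: in the 8 libraries, 4.57% to 7.31% of reads had no feature, 1.1% to 1.32% were ambiguous and 13% to 17.7% were not uniquely aligned.

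Counts were tested in R 4.3.3 with edgeR 4.0.16 (filterByExpr, TMM, quasi-likelihood test, Benjamini-Hochberg adjustment, threshold 0.1), 2 groups per fit. Alternatives used DESeq2 1.42.0, limma 3.58.1, other scalings and filters, and left out each library in turn. Columns of exGF, named GFR in the counts, were assigned to the group as the only ones left and were not matched to single samples. Replicate pairs differed beyond sampling noise (mean chi-square per gene 11.2 to 37.3). The steps were tested on simulated data, where the share of unchanged genes among those called was somewhat above the threshold.

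Genes named were all called genes, the 12 next by unadjusted p in each direction, up to 4 members per list by unadjusted p with its most abundant member, and genes the study names, of which some are not reported here. Members and the 34 lists were chosen with earlier results of these data known. Shared sequence was counted as 31-base words of GENCODE transcripts on both strands. Where no library of a group held over 3 counts of a called gene, the ratio of summed counts with a 95% Clopper-Pearson interval is given in place of the fold bound that had been fixed, and both forms of that bound stand with the alternatives.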

Additional observations from a re-analysis of the deposited data

Results flagged for a closer look

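In 11 of 252 groups of 4 values looked at (92 genes and 34 list sums, in CON and in exGF), 1 library stood far from the other 3 by Dixon's ratio. Chance gives about 1 in 20 groups. Gm6612 was 0.041 CPM in the first CON library, a single count, and 0 in the others, where any single count would stand out in this way. Scn3b was 156 CPM in the second CON library, with the others at 163 CPM. Gm16008 was 1.79 CPM in the second CON library, with the others at 1.34 to 1.39 CPM. Igfn1 was 17 CPM in the second CON library, with the others at 12.9 to 13.4 CPM. Tuba1b was 203 CPM in the second CON library, with the others at 188 to 190 CPM. The summed striatum list was 521 CPM in the second CON library and 261 to 282 CPM in the others. Pla2g7 was 109 CPM in the fourth exGF library, with the others at 57.2 to 65.2 CPM. Rbm3 was 50.7 CPM in the second exGF library, with the others at 62.3 to 63.7 CPM. Rpl29 was 42.7 CPM in the first exGF library, with the others at 14.3 to 18 CPM. Cux1 was 83.9 CPM in the third exGF library, with the others at 69.3 to 70.6 CPM. Cyp1b1 was 2.81 CPM in the fourth exGF library, with the others at 4.1 to 4.28 CPM.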

How the results depend on the processing

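The count of 11 genes called between exGF and CON was 48 with no filter on low counts, 7 with at least 10 counts in every library, 60 with DESeq2 without a prior and 55 with a prior on fold changes. It was 10 to 15 under other scalings, the robust fit, limma-voom, a threshold of 0.05 and the fit of all 12 libraries, and 8 to 14 when 1 library was left out. The 39 genes between GF and CON became 221 without a filter and 205 with DESeq2, and 27 to 60 without 1 library. The 0 genes between exGF and GF became 32 without a filter and 19 with DESeq2, and 0 to 7 without 1 library. The causes were not tested. Tuba1c, Gm14150, Slc7a11, Rps26-ps1, Gm6612 and D030028A08Rik were called in every alternative in which they were tested, and all of these but Slc7a11 and D030028A08Rik had too few counts to be tested with at least 10 counts in every library. Ifit2 and Scn4b lost the call in the fit of all 12 libraries and Gm10039 in the robust fit, and Scn4b also without the first CON library. Cfap74 and Gm15772 lost it in 6 of 8 fits that left out a library. Of 81 other genes followed over the alternatives, 26 were called in some alternative: 26 with DESeq2, 25 with its prior, 19 with no filter, 4 in the fit of all 12 libraries, 1 with upper-quartile scaling and 0 to 2 without 1 library. The prior on fold changes shrank all 11, to log2 fold changes of 0.39 for Gm6612, -0.52 for Rps26-ps1, -0.65 for Tuba1c, -1.54 for Gm14150, -0.35 for Gm10039, -0.79 for D030028A08Rik, -0.88 for Slc7a11, 0.76 for Ifit2, 0.59 for Scn4b, 0.66 for Cfap74 and -0.67 for Gm15772. Signs held for all genes given a log2 fold change in the report except Mog and Mag, whose ranges without 1 library ran from -0.0001 to 0.37 and from -0.0053 to 0.26. Of 34 list medians, 19 took both signs over the alternatives; of these, choroid plexus ran from -0.35 to 0.18 and striatum from -0.23 to 0.34. Over all alternatives the median of all tested genes ran from -0.01 to 0.01, of fast-spiking genes from 0.21 to 0.36, of microglial genes from -0.36 to -0.19 and of meningeal genes from -0.50 to -0.27. Those of the antigen presentation, complement, ribosomal, oligodendrocyte, activity-induced and clock lists ran from -0.39 to -0.10, -0.40 to -0.20, -0.35 to -0.09, 0.07 to 0.26, 0.13 to 0.32 and 0.10 to 0.21. The fold bound of Gm14150, fixed as 3 counts in the deepest exGF library, was 73.7, and with the shallowest library it was 57.8. For Gm6612 these were 6.28 and 5.05. The shallowest library was chosen after seeing the data, with an earlier value of the bound known. No paired analysis was possible because the exGF libraries could not be matched to numbered samples and animals were pooled at random within groups. Depth limits genes under about 1 CPM, where few counts carry the fold.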
